A study of Mus musculus with 15 samples.

Results

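Mammalian mitochondria carry their own ribosome, whose RNA is made inside the organelle while all of its proteins are encoded in the nucleus. The genes of those proteins are named Mrpl for the large and Mrps for the small subunit. Every row of the deposited expression table whose symbol is Mrpl or Mrps followed by digits was taken, pseudogene copies marked -ps left out. This gave 76 genes of 44827 in the table, 47 of them Mrpl and 29 Mrps, and 5 -ps rows were left out. The choice used symbols only and no measured value. Of the 76 genes, 75 reached at least 1 CPM (counts scaled to library size) in at least 3 libraries and were tested. The gene that did not, Mrpl53, had 0 counts in 10 of the 15 libraries and at most 4 in any, or up to 0.132 CPM.

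The RNA came from bone marrow of C57BL/6 mice, from cells sorted as LSK, the fraction that lacks lineage markers and carries Sca1 and cKit and is enriched for stem and early progenitor cells. There were 5 groups of 3 libraries. One was wild type (WT), one lacked Tet2 (Tet2-/-) and one carried the Nras(G12D) allele. The other two carried both changes, Tet2-/- and Nras(G12D), one without leukemia (below, the double mutant) and one with leukemia (the leukemic double mutant). The mutations were conditional and limited to blood-forming tissue, the Cre line is not named in the sources used here, and an age of 6 months is given for the companion methylation samples. The leukemic columns alone carry the tag BMT, whose meaning the sources used here do not give. Its effect and that of leukemia cannot be told apart. Nothing in the labels ties each of the 3 libraries of a group to a mouse of its own, and every p-value here therefore rests on library-to-library spread that may be partly technical.

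The mitochondrial ribosome translates the 13 mRNAs of the mitochondrial genome, all of which code for subunits of the respiratory chain and the ATP synthase. Compared with its bacterial relatives it has less RNA and more protein, and many of its proteins have no bacterial counterpart. Blood stem cells are known for low mitochondrial activity at rest, and mitochondrial translation is a known point of dependence of some leukemias. TET2 is a dioxygenase that oxidises methylated cytosine, and NRAS is a GTPase upstream of the ERK pathway, which the G12D change holds in its active form.

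Some libraries stood apart from others of their own group, and this touches each comparison of the 75 genes. Relative to the WT mean, the median over the 75 genes was 0.15 on the log2 scale in leukemic library 1, against 0.84 in library 2 and 0.73 in library 3. In the other 12 libraries it ran from -0.24 to 0.19. In the Tet2-/- group, 33 of the 75 genes were below all 3 WT libraries in both library 1 and library 3, and 35 were above all 3 WT libraries in both. Tet2-/- library 2 lay within the WT range for 53 of the 75 and for 23 of those 33. The matching shares of all tested genes are not given here. Whether this split among the Tet2-/- libraries is particular to the 75 genes was therefore not tested. Total counts ran from 22733189 to 43562909 per library. The LSK markers Kit and Cd34 were present in every library, but at 375 to 448 CPM (Kit) and 129 to 316 CPM (Cd34) in leukemic libraries 2 and 3, against 434 to 2910 and 969 to 2012 CPM in the other 13. Ly6a, which encodes Sca1, was at 64.7 and 189 CPM in these 2 libraries, within the 59.3 to 198 CPM of the others. Nras(G12D) library 2 held 3801 CPM of 8 mature neutrophil genes against at most 408 CPM elsewhere.

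**Figure D1:**
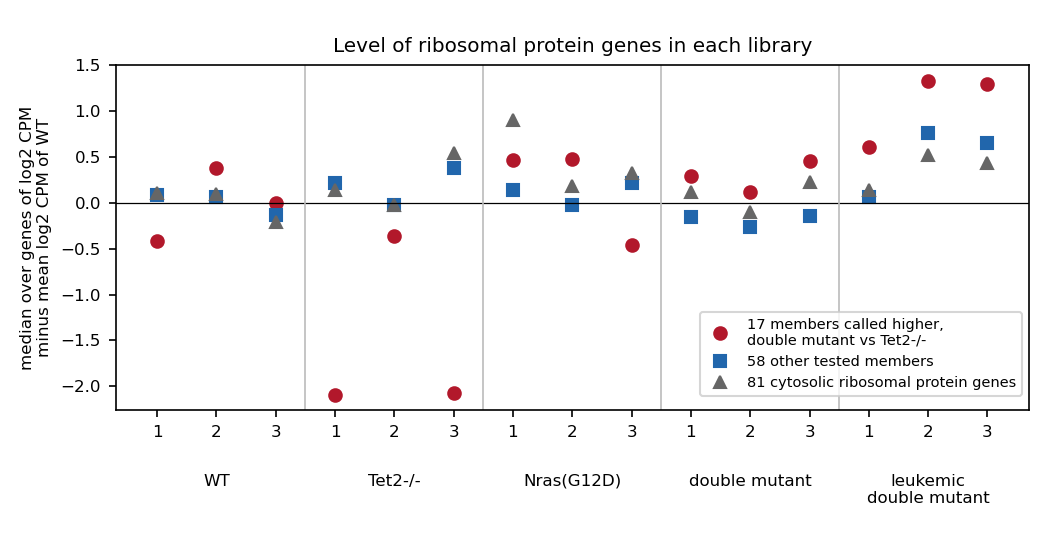
Median log2 level of 3 sets of ribosomal protein genes in each of the 15 libraries, relative to the mean of the 3 WT libraries; each point is 1 library. The 58 other members (blue) run from -0.26 to 0.38 in 13 libraries, with Tet2-/- library 3 the highest of these. In leukemic libraries 2 and 3 they are at 0.76 and 0.65. The 17 members called higher in the double mutant than in Tet2-/- (red) are at -2.09 and -2.07 in Tet2-/- libraries 1 and 3. In Tet2-/- library 2 they are at -0.36. The red set was picked with these same Tet2-/- values, so low values there are partly built in.

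Per kilobase of the principal transcript, the 75 genes spanned from 4.47 to 154 CPM per kb on the mean of all 15 libraries, with a median of 42.3 CPM per kb. These levels and their order depend on the transcript whose length is used. The highest was Mrpl42, a large-subunit protein without a bacterial counterpart, at 141 ± 20.3 CPM per kb in WT (SD, n = 3). Its principal transcript has 666 bases and its longest 3277, and with the longer one its level would be far lower. Mrpl36 and Mrpl28, homologues of bacterial L36 and L28, followed at 109 ± 16.1 and 109 ± 6.07 CPM per kb in WT, a tie within their spread. The lowest means over all 15 libraries were those of Mrps34 (4.47 CPM per kb), Mrps30 (5.11) and Mrps25 (8.67). In WT alone Mrps30 (1.68 ± 0.678 CPM per kb) and Mrps34 (1.81 ± 0.808) were again the lowest, a tie within their spread, and Mrps26 (5.61 ± 2.52), Mrpl47 and Mrps35 also lay below Mrps25 (9.21 ± 1.15). The median level over all libraries was 45.4 CPM per kb for 19 large-subunit proteins counted as particular to mitochondria and 17.7 CPM per kb for 11 small-subunit ones. Mrps18a is counted among the 19, and Mrps18b and Mrps36 among the 11. Mrps18a and Mrps18b are paralogues of bacterial S18, and Mrps36 is no longer placed in the ribosome. For the homologues of bacterial proteins it was 47 CPM per kb over 29 large-subunit genes and 43.6 over 16 small-subunit genes.

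The genes also differed in how much they varied. Mrpl44, whose protein resembles ribonuclease III, was the steadiest, with an SD of 0.12 over the 15 log2 values and a range from 65.1 to 87.9 CPM. Mrpl23, the homologue of the bacterial protein at the exit of the peptide tunnel, had an SD of 0.20, and Mrps14, the homologue of bacterial S14, one of 0.22. The most variable were Mrps34 with an SD of 2.06, Mrps24 with 1.98 and Mrps26 with 1.62, all proteins of the small subunit. An F test over the 5 groups called 39 of the 75 genes at an adjusted p below 0.05, against 44.0% of all 13927 tested genes. Its smallest adjusted p-values belonged to Mrps24 (0.00217), Mrps26 (0.00217), Mrps30 (0.00319) and Mrps34 (0.00333).

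**Figure D2:**
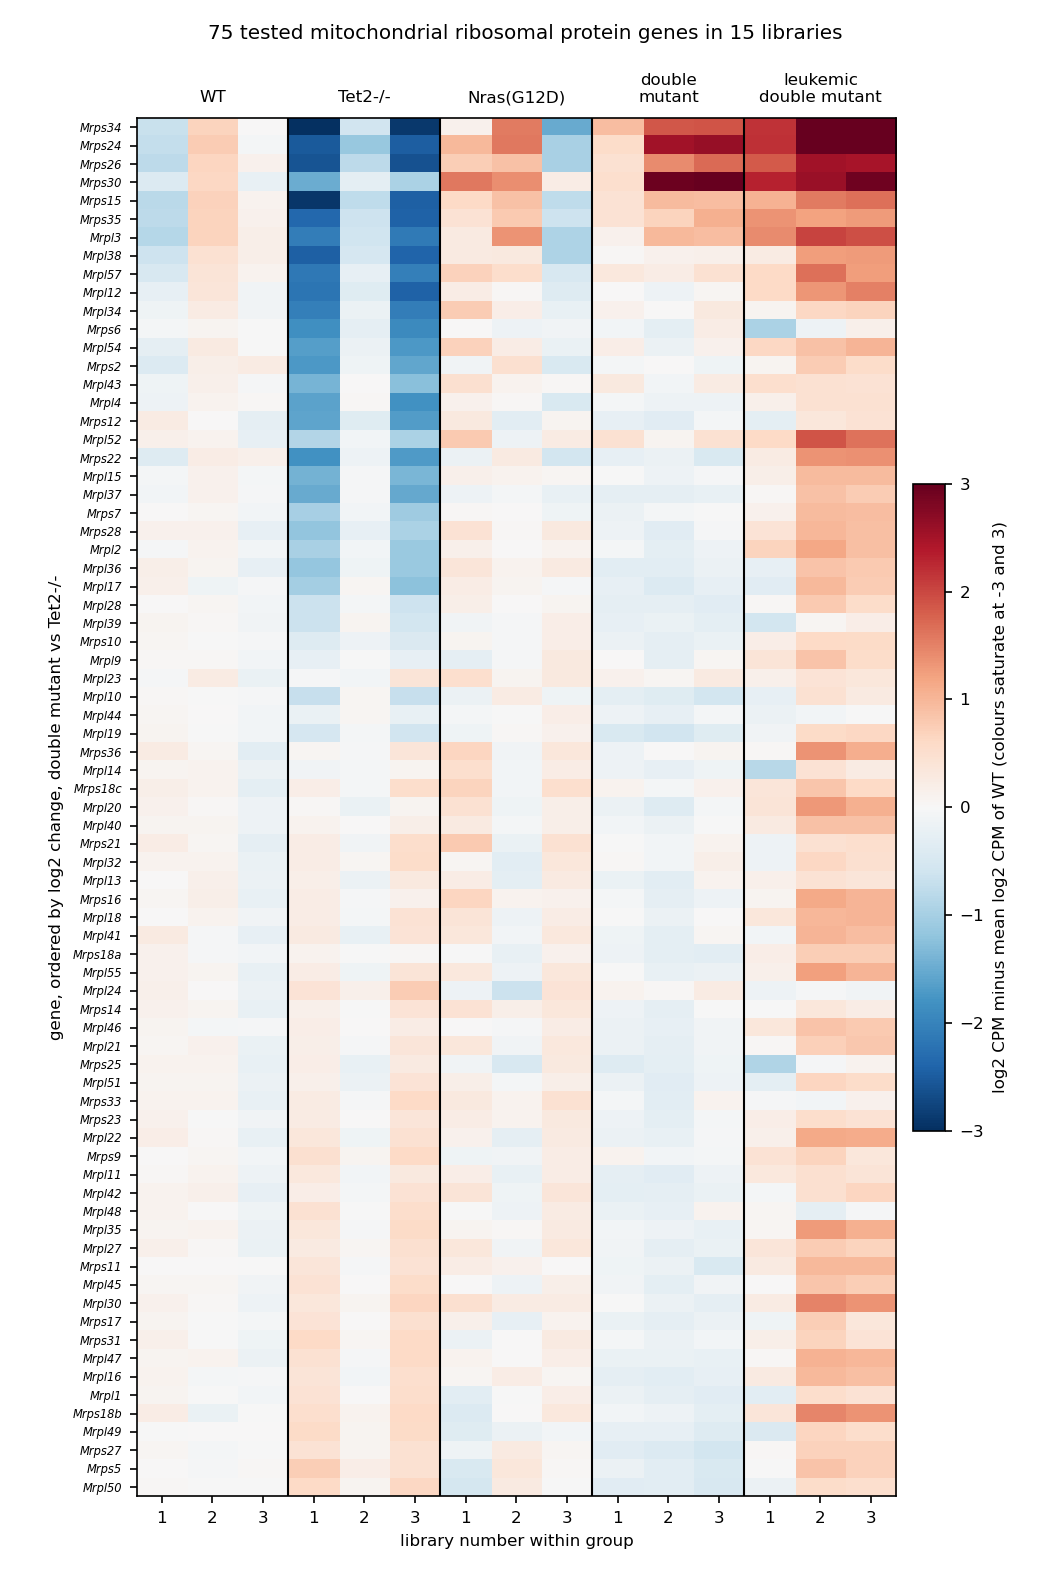
Log2 CPM of the 75 tested genes relative to the mean of WT, 1 row per gene, 1 column per library, rows ordered by the log2 change of the double mutant against Tet2-/-. The upper rows are blue in Tet2-/- libraries 1 and 3 and pale in library 2, and the columns of leukemic libraries 2 and 3 are red over most rows while that of library 1 is paler.

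In the leukemic double mutant, mitochondrial ribosomal protein genes were higher as a group than in the double mutant without leukemia. Of the 75 genes 29 rose and 0 fell, where 9.04% of all tested genes were called higher and 2123 of 13927 were called lower. The median log2 change over the 75 was 0.73, against -0.10 over all tested genes, and 72 of the 75 estimates were above 0. The 3 others, Mrps6 (-0.26), Mrpl24 (-0.23) and Mrps25 (-0.01), are named because of their sign. For 52 of the 75 genes the 3 leukemic values all lay above the 3 values of the double mutant, against 19.7% of all tested genes. Both subunits took part: 20 of 48 large-subunit and 9 of 27 small-subunit genes were called, with median log2 changes of 0.75 and 0.65. Mrps30 and Mrps18a are counted with the large subunit here, where their proteins sit, and Mrps36 with the small subunit by its name. Homologues of bacterial proteins contributed 15 of 29 and 5 of 16 for the large and the small subunit. Those counted as particular to mitochondria, with Mrps18a, Mrps18b and Mrps36 among them, contributed 5 of 19 and 4 of 11.

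Mrps22, a small-subunit protein without a bacterial counterpart, had the largest rise among the called genes. Its levels were 31.1, 33 and 27.1 CPM without leukemia and 44.1, 93.7 and 95.8 CPM with it, a log2 change of 1.28 ± 0.42 (SE; adjusted p = 0.0398). The 2 groups did not overlap, and leukemic library 1 lay nearest to the double mutant. Mrps18b, 1 of 3 paralogues of bacterial S18, was at 14, 13.3 and 12.1 CPM and then at 19, 40.8 and 37.8 CPM, a log2 change of 1.23 ± 0.30 (adjusted p = 0.0121). Mrpl30, the homologue of bacterial L30, was at 55.6, 50 and 46.8 CPM and at 66.2, 159 and 143 CPM (1.18 ± 0.29, adjusted p = 0.0118). In both genes library 1 was above the double mutant by far less than libraries 2 and 3 were.

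Mrpl20, homologous to a bacterial protein that binds ribosomal RNA early in assembly, had the smallest adjusted p of the 29. Its levels were 61.5, 52.9 and 66.1 CPM without leukemia and 90.8, 170 and 145 CPM with it (log2 change 1.13 ± 0.24, adjusted p = 0.00711). Mrpl2, whose bacterial homologue lies close to the peptidyl transferase centre, was at 67.5, 57.2 and 63.6 CPM and at 111, 157 and 131 CPM (1.07 ± 0.25, adjusted p = 0.00934). Here library 1 stood clear of the double mutant as well. Mrpl52, a large-subunit protein particular to mitochondria, was at 43, 33.3 and 42.5 CPM and at 47.2, 115 and 97 CPM (1.04 ± 0.35, adjusted p = 0.0438). The other 23 called genes rose by log2 changes of 0.55 to 0.99.

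**Figure D3:**
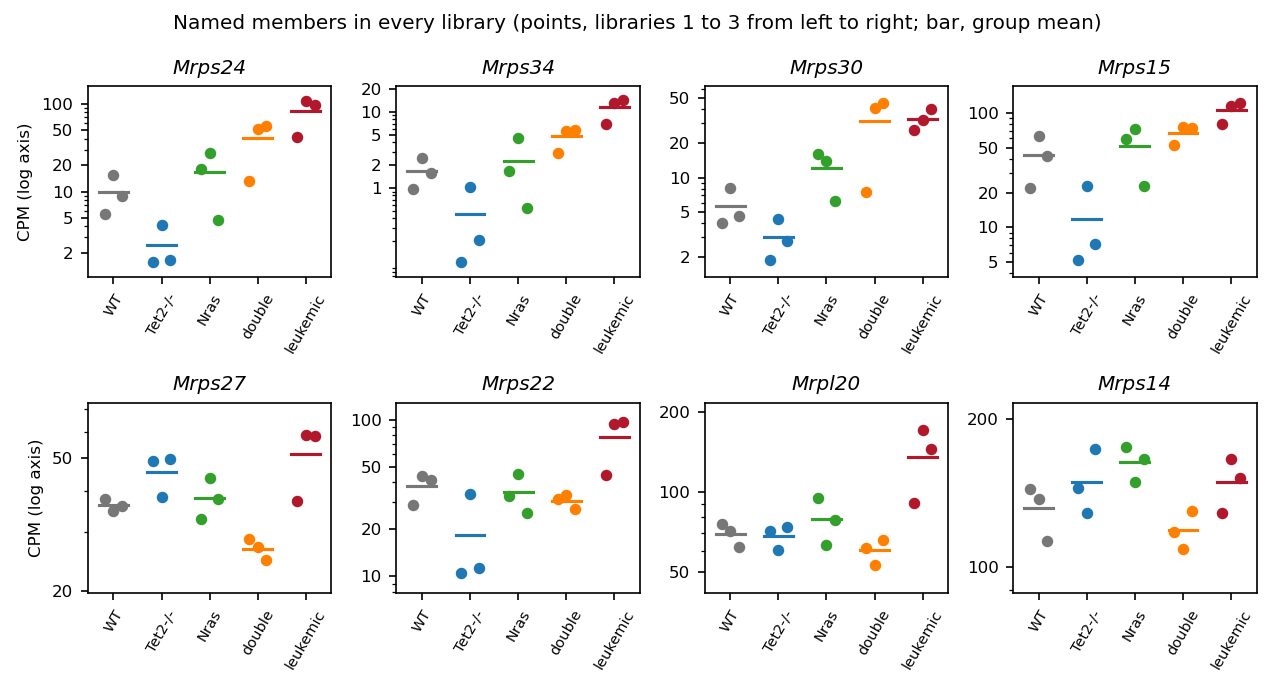
CPM on a log axis of 8 genes in every library; points are libraries 1 to 3 of each group from left to right and bars are group means. Mrps22 and Mrpl20 are highest in leukemic libraries 2 and 3, Mrps24, Mrps34 and Mrps15 are lowest in Tet2-/- libraries 1 and 3, and Mrps14 stays between 109 and 176 CPM throughout.

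Against WT the leukemic double mutant gave 19 rises and 0 falls among the 75 genes. Of all tested genes 10.8% were called higher, and 1938 of 13927 were called lower. The median log2 change was 0.53, against 0.00 over all tested genes, and 68 of 75 estimates were above 0. In 37 of the 75 all 3 leukemic values lay above all 3 WT values, against 24% of tested genes. Mrps24 was at 5.58, 15.6 and 8.8 CPM in WT and at 42, 108 and 97.4 CPM in leukemia, and Mrps26 at 13, 34.5 and 24.5 CPM and at 80.2, 128 and 124 CPM. Mrpl3, the homologue of bacterial L3, went from 22.4, 64.3 and 46 CPM to 109, 165 and 155 CPM. In these 3 genes the groups did not overlap, and leukemic library 1 was also above WT. The largest rises were those of Mrps24 (log2 change 3.06 ± 0.70, adjusted p = 0.00894), Mrps34 (2.81 ± 0.81, 0.0233), Mrps30 (2.60 ± 0.60, 0.00906) and Mrps26 (2.29 ± 0.57, 0.0127). Next came Mrpl3 (1.80 ± 0.55, 0.0301) and Mrpl52 (1.37 ± 0.35, 0.0135). The first 5 of these were also at higher values in the double mutant without leukemia than in WT, by log2 estimates of 0.68 to 2.18 that did not pass the test. The other 13 rose by log2 changes of 0.60 to 1.05.

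These counts depended on leukemic libraries 2 and 3. Without library 1, 45 genes were called against the double mutant and 42 against WT, while without library 2 the numbers were 5 and 2, and without library 3 they were 5 and 3. The share of all tested genes called in each of these fits is not given here. With library 1 as the only leukemic library, an alternative added after the data were seen, none was called in either comparison and the median log2 changes were 0.28 and 0.15. That lone library is assumed to vary like the other groups. The 10 erythroid genes that were followed as markers summed to 433, 4662 and 2151 CPM in leukemic libraries 1 to 3 and to between 41.1 and 557 CPM in the other 12. The 8 genes of S phase and mitosis summed to 3244, 6531 and 4880 CPM, against 1975 to 3543 CPM elsewhere, and the 6 LSK genes to 2700, 674 and 1200 CPM, against 2165 to 5566 CPM. All 10 erythroid genes, the globins included, were highest in library 2. The part of these cells and of the cell cycle in the result was not tested, and more RNA per cell cannot be told apart from more cells of a type.

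The number of calls also changed with the spread estimate and the scaling. Fitted on only the 6 libraries compared, 1 of the 75 genes was called between leukemic and non-leukemic double mutants, where 2.46% of all tested genes were called higher, and 12 were called against WT, where 10.7% were. Scaled to total counts alone, the leukemic double mutant gave 8 calls against the double mutant and 7 against WT, with the shares of all tested genes not given here. The median of all tested genes then moved to -0.34 and -0.26, and that of the 75 genes to 0.50 and 0.26.

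**Figure D4:**
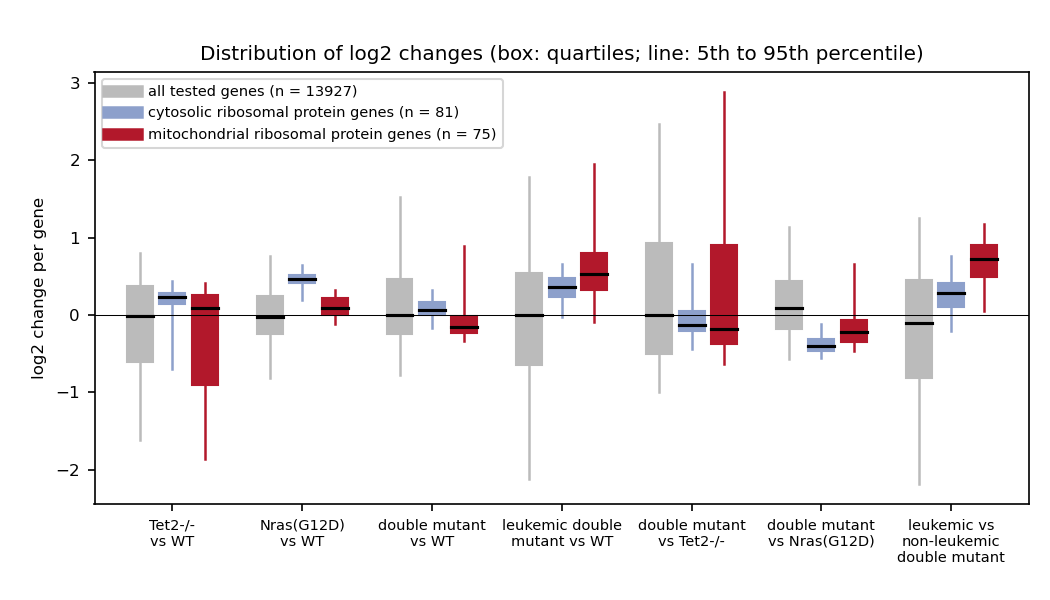
Log2 changes in 7 comparisons for all 13927 tested genes (grey), 81 cytosolic ribosomal protein genes (blue) and the 75 mitochondrial ones (red); boxes span the quartiles, black bars the medians, lines the 5th to 95th percentile. The red box lies clear above 0 in both leukemic comparisons (medians 0.53 and 0.73), and in the double mutant against Tet2-/- its median is -0.18 with a long upper tail.

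Promoter sequences (250 bases before to 50 after a RefSeq start, build GRCm38.p6) were found for 67 of the 76 genes, 73 promoters in all. They were searched on both strands for a core of the NRF1 motif, GCGCATGCG, an ETS family motif that GABPA also reads, CCGGAAG, a YY1 motif, AAGATGGCG, and TATAAA. NRF1 and GABPA (NRF2) are known activators of nuclear genes for mitochondrial proteins. The NRF1 core was in 9.59% of the 73 promoters against 1.75% of all 32851, the ETS motif in 32.9% against 8.86%, and the YY1 motif in 11% against 1.40%. TATAAA was in 6.85% against 13.6%. These promoters were also richer in G and C, with a median of 58.7% against 52.7%, so the shares differ in base composition too. Among the 30 promoters of genes called higher in the leukemic than in the non-leukemic double mutant, 46.7% held 1 or more of the first 3 motifs, and 46.6% of all 73 did. Below are 3 promoters of genes with large leukemic rises, with motif matches in capitals. Each of the 3 holds a match, so they do not stand for the 46.7%. Mrpl30, Mrpl20 and Mrpl2 rose more than Mrpl52 and are not shown. They are Mrps18b (chr17:35916391-35916690, minus strand), Mrps22 (chr9:98601630-98601929, minus strand) and Mrpl52 (chr14:54426659-54426958, plus strand).
Mrps18b: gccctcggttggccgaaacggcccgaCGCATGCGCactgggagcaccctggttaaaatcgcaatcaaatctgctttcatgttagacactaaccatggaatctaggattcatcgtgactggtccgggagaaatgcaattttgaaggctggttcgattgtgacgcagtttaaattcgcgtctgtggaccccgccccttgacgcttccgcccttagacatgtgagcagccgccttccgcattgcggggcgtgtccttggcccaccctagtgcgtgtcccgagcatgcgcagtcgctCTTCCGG
Mrps22: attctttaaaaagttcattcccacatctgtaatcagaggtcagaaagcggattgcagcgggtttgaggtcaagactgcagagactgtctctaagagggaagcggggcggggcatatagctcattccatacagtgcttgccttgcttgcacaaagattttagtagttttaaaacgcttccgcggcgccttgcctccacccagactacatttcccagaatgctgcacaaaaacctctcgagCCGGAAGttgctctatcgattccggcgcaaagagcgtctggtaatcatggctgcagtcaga
Mrpl52: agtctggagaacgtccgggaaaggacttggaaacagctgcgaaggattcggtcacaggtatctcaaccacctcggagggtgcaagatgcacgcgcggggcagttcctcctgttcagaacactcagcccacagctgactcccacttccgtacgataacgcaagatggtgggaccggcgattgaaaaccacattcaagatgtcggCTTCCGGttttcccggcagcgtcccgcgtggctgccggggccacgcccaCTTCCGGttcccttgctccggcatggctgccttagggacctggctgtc
Mrps18b holds the NRF1 core and, at its very end, the ETS motif, Mrps22 holds the ETS motif once, and Mrpl52 holds it at more than 1 place. A match is a description of the letters and not a bound site.

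A different pattern separated the double mutant from Tet2-/-. Here 17 of the 75 genes rose and 3 fell, where 20.1% of all tested genes were called higher and 8.57% lower, so the share called was near the background. The median log2 change was -0.18, against 0.00 over all tested genes, but single genes ran from -0.80 to 4. Of the 17, 9 were large-subunit and 8 small-subunit genes. In each of the 17, Tet2-/- libraries 1 and 3 lay below all 3 WT libraries, while library 2 did so in 6. The 17 were picked with these same Tet2-/- values, so low values there are partly built in. The share among all genes called higher is not given here.

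The 4 genes with the largest rises and the 3 that fell differed in sequence. For each, the 100 bases of the coding sequence richest in G and C are shown (GENCODE M21 principal transcript, build GRCm38), with runs of 6 or more G or C in capitals. Mrps34 is on chromosome 17 (24895116 to 24897502, plus strand), Mrps24 on 11 (5703983 to 5715680, minus), Mrps26 on 2 (130563742 to 130568695, plus) and Mrps30 on 13 (118378381 to 118387252, minus). Mrpl50 is on chromosome 4 (49512596 to 49521093, minus), Mrps5 on 2 (127587222 to 127606829, plus) and Mrps27 on 13 (99344786 to 99415562, plus).
Mrps34: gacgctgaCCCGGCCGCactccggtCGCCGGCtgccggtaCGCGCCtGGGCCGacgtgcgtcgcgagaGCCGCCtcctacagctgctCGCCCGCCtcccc
Mrps24: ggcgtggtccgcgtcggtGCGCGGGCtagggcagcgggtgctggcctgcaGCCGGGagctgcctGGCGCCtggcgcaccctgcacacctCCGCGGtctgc
Mrps26: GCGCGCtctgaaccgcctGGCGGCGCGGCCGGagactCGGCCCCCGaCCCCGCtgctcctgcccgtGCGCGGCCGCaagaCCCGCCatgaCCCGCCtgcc
Mrps30: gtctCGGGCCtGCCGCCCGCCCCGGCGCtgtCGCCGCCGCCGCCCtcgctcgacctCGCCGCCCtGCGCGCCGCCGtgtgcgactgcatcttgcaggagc
Mrpl50: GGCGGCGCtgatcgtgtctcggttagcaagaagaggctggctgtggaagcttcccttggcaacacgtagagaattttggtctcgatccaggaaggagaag
Mrps5: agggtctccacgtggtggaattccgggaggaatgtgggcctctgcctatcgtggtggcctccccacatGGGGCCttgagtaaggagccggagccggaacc
Mrps27: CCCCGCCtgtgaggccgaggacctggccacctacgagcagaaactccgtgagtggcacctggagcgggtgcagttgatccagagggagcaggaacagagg
The first 4 windows are 78%, 78%, 80% and 80% G and C and hold 6, 4, 7 and 5 such runs. The last 3 are 55%, 64% and 65% and hold 1 each.

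Mrps24, the homologue of bacterial S3, was at 1.59, 4.15 and 1.64 CPM in the Tet2-/- libraries 1 to 3 and at 13.3, 52.4 and 56.3 CPM in the double mutant. WT had 5.58, 15.6 and 8.8 CPM and Nras(G12D) 18.1, 27.2 and 4.69 CPM. The log2 change was 3.94 ± 0.70 (SE; adjusted p = 0.00472), and even the lowest double mutant library was above every Tet2-/- library. Mrps34, a small-subunit protein particular to mitochondria, rested on few reads: 2, 34 and 6 counts in Tet2-/- and 84, 187 and 163 in the double mutant. That gave 0.106, 1.04 and 0.207 CPM and 2.92, 5.65 and 5.74 CPM (log2 change 4 ± 0.81, adjusted p = 0.00526). Mrps34 overlaps Nme3, and Mrps24 overlaps Urgcp, each on the same strand, so their reads could have been shared or dropped in counting.

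Mrps26, also particular to the mitochondrial small subunit, was at 3.72, 12.8 and 3.65 CPM in Tet2-/- and at 30.7, 59.7 and 71.7 CPM in double mutants (3.18 ± 0.57, adjusted p = 0.00472). Mrps30, a large-subunit protein despite its name, was at 1.89, 4.33 and 2.76 CPM and at 7.52, 40.8 and 45.6 CPM (3.09 ± 0.60, adjusted p = 0.00472). In Mrps24, Mrps34, Mrps26 and Mrps30 alike, double mutant library 1 was the lowest of its group. Mrps15, the homologue of bacterial S15, was at 5.2, 23.2 and 7.13 CPM and at 52.4, 75.2 and 74.8 CPM (2.81 ± 0.54, adjusted p = 0.00472). Mrps35, particular to mitochondria, was at 6.1, 20.5 and 5.85 CPM and at 42.2, 50 and 65.4 CPM (2.52 ± 0.49, adjusted p = 0.00472). In each of these genes Tet2-/- library 2 was the highest of its group, and the groups did not overlap. The other 11 that rose, Mrpl3, Mrpl12 and Mrps12 among them, had log2 changes of 0.98 to 2.28.

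The 3 genes that fell moved far less. Mrpl50, particular to mitochondria, was at 135, 94.2 and 137 CPM in Tet2-/- and at 71.1, 71.7 and 64.5 CPM in double mutants (log2 change -0.80 ± 0.25, adjusted p = 0.0298). Mrps5, the homologue of bacterial S5, was at 145, 99.9 and 119 CPM and at 76.3, 69.1 and 62.7 CPM (-0.79 ± 0.26, adjusted p = 0.0346). Mrps27, a protein with pentatricopeptide repeats, was at 49.1, 38.2 and 49.7 CPM and at 28.7, 27.1 and 24.7 CPM (-0.76 ± 0.22, adjusted p = 0.0235). Tet2-/- library 2 was here the lowest of its group and still above the double mutant.

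Across the 75 genes, the log2 change of the double mutant against Tet2-/- went with the G and C content of the richest 100 bases anywhere in the principal transcript (below, peak GC), a measure chosen after the data were seen. Spearman's rho was 0.77 over the 75 genes and 0.64 over the 11890 tested genes with a value, all from the same 6 libraries. With the mean G and C content of the transcript it was 0.36 over the 75. The 17 genes that rose had a peak GC of 70% to 80% (median 76%), and the 3 that fell were at 61%, 65% and 72%. The 55 genes not called ran from 59% to 82% (median 69%). They include the members with the highest peak GC, Mrps7 (82%, log2 estimate 0.63) and Mrpl40 (81%, -0.19). In 17 members at 75% or more the median log2 change was 1.29, against 1.01 over 5039 such genes of all kinds. In 24 members at 70% to below 75% it was 0.29, against -0.06 over 2635 such genes of all kinds. In 26 members at 65% to below 70% it was -0.35, and in 8 lower ones -0.44, against -0.50 and -0.58 over all genes in those ranges. For Tet2-/- against WT, which shares the Tet2-/- libraries, rho was -0.77 over the 75 genes.

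Between leukemic and non-leukemic double mutants the changes were nearly level across peak GC. Spearman's rho with peak GC was 0.13 over the 75 genes for leukemic against non-leukemic double mutants. The medians from the lowest to the highest of the 4 ranges were 0.54, 0.72, 0.75 and 0.77, where all tested genes had -0.13, 0.00, 0.00 and -0.16. For leukemia against WT rho was 0.34 over the 75 genes, and the medians in the 4 ranges were 0.28, 0.50, 0.49 and 0.99, against -0.17, -0.13, -0.04 and 0.26 over all tested genes. Mrps24, Mrps34, Mrps30, Mrps26 and Mrpl3, which had the largest rises there, have a peak GC of 79%, 78%, 80%, 80% and 80%. When each library was corrected for peak GC, 14 of the 75 genes were called higher and 2 lower in the double mutant against Tet2-/-, with a median log2 change of 0.16 in place of -0.18. Mrps24 was then at a log2 change of 2.86 (adjusted p = 0.00466) and Mrps30 at 1.92 (0.0105), and Mrps5 was still called lower (-0.81, 0.0334), while Mrpl50 (-0.26, 0.466) and Mrps27 (-0.23, 0.475) were no longer called. The same correction gave 41 calls for leukemic against non-leukemic double mutants and 40 against WT. With Tet2-/- library 2 as the only library of its group, none of the 75 was called against the double mutant, but Mrps24 was still at a log2 estimate of 3.03 (adjusted p = 0.345). Without library 2 there were 38 calls, and without library 1 or library 3 there were 6 each. Without double mutant library 2 there were 12 and without library 3 there were 7. Without leukemic library 1, which bears only on the shared spread, there were 31. For the correction and for these fits, the share of all tested genes called is not given here.

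**Figure D5:**
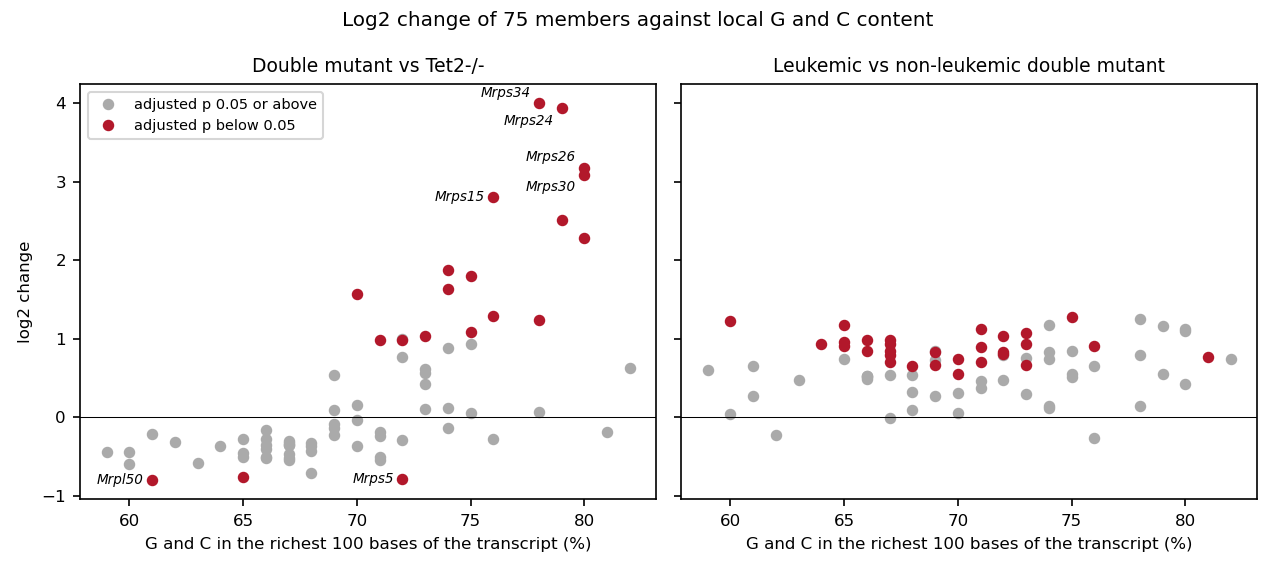
Log2 change of each of the 75 genes against the share of G and C in the richest 100 bases of its principal transcript, for 2 comparisons on the same vertical axis; red points passed the test. In the double mutant against Tet2-/- many points rise steeply above about 70% while others there stay near 0 (rho 0.77). In leukemic against non-leukemic double mutants the points lie in a flat band mostly above 0 (rho 0.13).

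In the remaining comparisons no mitochondrial ribosomal protein gene was called by limma. Tet2-/- against WT had 23 of the 75 genes at an unadjusted p below 0.05, against 3304 of 13927 tested genes. At the adjusted threshold 0.230% of all tested genes were called. The 2 with the smallest p were Mrpl12 (log2 estimate -1.66 ± 0.43, adjusted p = 0.108) and Mrps15 (-2.04 ± 0.54, 0.108). Without Tet2-/- library 2, 24 of the 75 were called, all lower. That fit called 16% of all tested genes, a share not split by direction here. Nras(G12D) against WT had 0 of 75 at an unadjusted p below 0.05, against 577 of 13927 tested genes, and a median of 0.09. At the adjusted threshold 0% of all tested genes were called. Mrps30 (1.07 ± 0.60, adjusted p = 0.984) and Mrps14 (0.32 ± 0.19, 0.984) had the smallest p. The double mutant against WT had 2 at an unadjusted p below 0.05, Mrps30 (2.18 ± 0.60, adjusted p = 0.0953) and Mrps24 (1.89 ± 0.70, 0.197). Of all 13927 tested genes 2119 were at an unadjusted p below 0.05, and 0.682% were called. Without double mutant library 1, 2 of the 75 genes were called.

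Most estimates for the double mutant were below 0 without passing the test. Its median log2 change was -0.15 against WT and -0.22 against Nras(G12D), where all tested genes had 0.00 and 0.09. Against Nras(G12D) 60 of 75 estimates were below 0, and in 25 genes all 3 values lay below the 3 of Nras(G12D), against 6.87% of tested genes. None was called, and 0.0790% of tested genes were. An unadjusted p below 0.05 was reached by 2 of the 75, against 1032 of 13927 tested genes. Those 2 were Mrps14 (-0.46 ± 0.19, adjusted p = 0.616) and Mrps27 (-0.50 ± 0.22, 0.655). Mrps14 was at 176, 149 and 166 CPM in Nras(G12D) and at 118, 109 and 130 CPM in double mutants. Against WT 19 genes lay wholly below, near the 20.8% of all tested genes. The interaction, which asks whether the double mutant departs from the sum of the 2 single mutants, called 0 of 75 genes and 0% of all tested genes. An unadjusted p below 0.05 was reached by 16 of the 75, near the share of all tested genes (2924 of 13927). The median over the 75 was -0.26. Mrps26 (2.97 ± 0.81, adjusted p = 0.143) and Mrps24 (3.41 ± 0.99, 0.143) had the smallest p of the interaction. Without Tet2-/- library 2 the interaction called 19 of the 75, all higher, and 12.1% of all tested genes, a share not split by direction here.

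Of the 3 paralogues of bacterial S18, Mrps18a and Mrps18b rose in leukemia. Mrps18b and Mrps18c belong to the small subunit and Mrps18a to the large one. Mrps18a was at 54.2, 49.7 and 48.5 CPM without leukemia and at 69.2, 101 and 101 CPM with it, a log2 change of 0.81 ± 0.20 (SE; adjusted p = 0.012). Mrps18c stood at 25.5, 22.6 and 25.9 CPM and at 30.2, 42.1 and 35.6 CPM, and its estimate of 0.53 ± 0.25 missed the threshold (adjusted p = 0.136). Whether the paralogues differ from each other was not tested. Mrps12, the homologue of S12 of the decoding centre, was at 44.9, 42.5 and 51.6 CPM without leukemia and 44, 67.9 and 72.3 CPM with it (0.38 ± 0.33, adjusted p = 0.416). Against Tet2-/- (17.9, 41.7 and 16.8 CPM) Mrps12 was higher in the double mutant (0.99 ± 0.33, adjusted p = 0.0377). With Tet2-/- library 2 alone that estimate was 0.15. Against WT the double mutant was at a log2 estimate of -0.21, which did not pass the test.

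Mrpl12, the counterpart of the bacterial stalk protein L7/L12, is also known to bind the mitochondrial RNA polymerase. Its levels were 7.12, 24.9 and 6.05 CPM in Tet2-/-, 32.6, 29 and 33.4 CPM in double mutants and 49.1, 80.9 and 91.9 CPM in the leukemic double mutant. In the double mutant it was higher than in Tet2-/- (1.63 ± 0.43, adjusted p = 0.0154), but at a log2 estimate of -0.03 against WT. With Tet2-/- library 2 alone the estimate against Tet2-/- was 0.34. The estimate of 1.18 ± 0.43 for leukemic against non-leukemic double mutants missed the threshold (adjusted p = 0.0602) although these 2 groups did not overlap. Mrps30 did not differ detectably between the leukemic (26.2, 31.9 and 40.2 CPM) and non-leukemic double mutant (0.42 ± 0.60, adjusted p = 0.63). Mrps36, now placed in an oxoglutarate dehydrogenase complex and not in the ribosome, stood at 7.49, 8.43 and 8.86 CPM without leukemia and at 8.49, 21.2 and 17.7 CPM with it (0.84 ± 0.33, adjusted p = 0.079).

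Lists of other nuclear genes of mitochondrial gene expression were read in the leukemic against non-leukemic comparison, where 9.04% of all tested genes were called higher. Except for the first list of 6 genes, the shares called were near or under that background. Of 6 mitochondrial ribosomal proteins that carry other names, Dap3 (log2 change 1 ± 0.26, adjusted p = 0.016), Ptcd3 (1.01 ± 0.31, 0.0293) and Gadd45gip1 (1.5 ± 0.49, 0.0401) rose, and the median was 0.84. Among 14 translation factors 2 rose, the elongation factor Gfm1 (1.33 ± 0.38, 0.0235) and the RNA-binding Lrpprc (1.34 ± 0.46, 0.0464), with a median of 0.31. Among 24 genes of ribosome assembly and RNA modification, 3 rose, Eral1 (0.69 ± 0.21, 0.0299), Fastkd2 (1.08 ± 0.33, 0.0307) and Mtg1 (0.73 ± 0.24, 0.0424), with a median of 0.44. Of 20 mitochondrial aminoacyl-tRNA synthetases and amidotransferase subunits, Fars2 (0.81 ± 0.21, 0.017) and Sars2 (0.90 ± 0.26, 0.0219) rose, with a median of 0.59 and 18 above 0. Of 15 genes of mitochondrial DNA upkeep and transcription, 1 rose, the tRNA-processing Elac2 (1.63 ± 0.53, 0.0399). None of the 9 regulators passed. Gabpa was at 0.75 ± 0.29 (adjusted p = 0.0742) and Nrf1 at 0.56 ± 0.24 (0.0955), and Ppargc1a, a coactivator of mitochondrial biogenesis, was at -0.74 ± 0.78 (adjusted p = 0.502) in this comparison. Against WT Ppargc1a was at -2.50 ± 0.78 in the double mutant (adjusted p = 0.125) and fell in the leukemic double mutant (-3.24 ± 0.78, adjusted p = 0.0107).

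No change was called among the mRNAs made inside mitochondria. Of the 13, 8 were tested and none was called in any comparison of 2 groups. In leukemic against non-leukemic double mutants 1 of the 8 was above 0, with a median of -0.25, beside the 0.73 of the ribosomal protein genes. Libraries were made by poly(A) selection, which need not capture mitochondrial mRNAs evenly. Among genes of the cytosolic ribosome, 7 of 81 were called higher and 0 lower, with a median of 0.28 in the same comparison, a share near the 9.04% of all tested genes. For Nras(G12D) against WT the cytosolic median was 0.46 (79 of 81 estimates above 0, 26 at an unadjusted p below 0.05, 0 called), beside 0.09 for the mitochondrial genes (56 of 75 above 0). The difference between the cytosolic and mitochondrial sets was not tested.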

How the data were processed

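RNA-seq of poly(A)-selected RNA (TruSeq Stranded mRNA, per the labels' protocols) gave 15 libraries in 5 groups. The authors deposited 1 table of log2 values. These proved to be log2 CPM, since with 0.5 added to each count and 1 to each library size every value came back as a whole count (100% within 1e-06). The library sizes behind the values were not the total counts. They ran from 0.8127 times the total in leukemic library 2 to 1.1176 times in Nras(G12D) library 1, with leukemic library 3 at 0.8826. The submitters' processing notes name the aligner STAR 2.4.0f1, the packages limma 3.28.21 and edgeR 3.14.0, and bcl2fastq, and the builds mm10 and NCBIM37 without a role. How reads were counted, on which annotation and whether by strand is not given in the sources used here. Of the 76 genes, 40 overlap another annotated gene, 34 of them one on the other strand, so overlapping reads may be assigned uncertainly.

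The deposited values were tested with limma 3.58.1 in R 4.3.3 (group means, all 15 libraries, trended moderation, two-sided, Benjamini-Hochberg adjustment over the 13927 genes that reached 1 CPM in 3 or more libraries). A change passed at an adjusted p below 0.05. The fit was also run on simulated counts, with the outcome not given here. Noise was drawn there separately for each gene and library, so no library stood apart from its group. That run therefore cannot speak for calls that rest on single libraries. A log2 change includes the 0.5 added per count, which understates the change of low genes. Coordinates, lengths and coding sequences come from GENCODE M21 (GRCm38), which need not be the annotation the authors used, and promoters from RefSeq (GRCm38.p6).

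Genes were named when among the 6 largest called changes in a direction, the 4 smallest F test p-values, the 3 highest or lowest levels per length, the 3 most or least variable, or, where fewer than 2 were called, the 2 smallest p-values. Mrpl12, Mrps12, Mrps18a, Mrps18b, Mrps18c, Mrps30 and Mrps36 were always named. The genes, lists and rules were chosen with earlier results of these data known. Alternatives were other scalings, no filter, library weights, a replicate block, covariates and leaving out each library. The peak GC correction and the fits with 1 leukemic or 1 Tet2-/- library were chosen after seeing the data.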

Additional observations from a re-analysis of the deposited data

How the results depend on the processing

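With total counts as the scaling, 7 of the 75 genes were called for leukemic double mutant against WT, 8 for leukemic against non-leukemic and 25 by the F test. Quantile normalization gave 6 for leukemic against WT. Without a filter there were 11 against WT and 17 against the double mutant. With only the groups compared there were 12 and 1. The peak GC correction gave 40 against WT. Library weights, which gave leukemic library 1 the lowest weight (0.216), called 50 of the 75 genes for Tet2-/- against WT (50.7% of all tested genes), 8 for the double mutant against WT (25.9%), 62 higher in each leukemic comparison (29.4% of all tested genes higher against WT, 23.6% against the double mutant), 58 for the double mutant against Tet2-/- (63.1%), 52 for the interaction (42.8%) and 70 by the F test (85.8%). With leukemic library 1 alone, 0 genes were called in each leukemic comparison and 8 by the F test. With Tet2-/- library 2 alone, 0 were called against the double mutant and 8 by the F test. In this section, where no percentage stands beside a count, the share of all tested genes called in that fit is not given. The causes were not tested.

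Leaving out 1 library at a time gave 0 to 24 genes for Tet2-/- against WT, 0 to 2 for the double mutant against WT, 2 to 42 for leukemic against WT, 6 to 38 for the double mutant against Tet2-/-, 5 to 45 for leukemic against non-leukemic, 0 to 19 for the interaction and 19 to 56 by the F test. Leaving out WT libraries 1, 2 and 3 gave 4, 9 and 3 for leukemic against WT, and leaving out Tet2-/- library 2 gave 30. Leaving out non-leukemic double mutant libraries 1, 2 and 3 gave 16, 9 and 11 for leukemic against non-leukemic. Nras(G12D) against WT and the double mutant against Nras(G12D) gave 0 under every alternative run.

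Estimates that changed sign were those of Mrps12 in leukemic against non-leukemic (-0.07 with leukemic library 1 alone), of Mrps30 in the same comparison (-0.42 without double mutant library 1, up to 0.88 without library 3), and of Mrps18c and Mrps36 in the double mutant against Tet2-/- (0.35 and 0.20 with the peak GC correction, 0.11 and 0.03 with Tet2-/- library 2 alone). None of these had passed the test. Among the named genes' other values 1014 kept direction and side of the threshold, 106 lost the call and 35 gained it.

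Deviations of same-numbered libraries correlated at -0.35 to 0.29 over 30 pairs, 12 of them above 0.1, against 11 of 60 pairs with different numbers. All 3 same-numbered pairs were above 0.1 only between Tet2-/- and the double mutant (0.14, 0.11 and 0.12), and the labels do not say what the numbers stand for. With a replicate block, 9 genes were called for Tet2-/- against WT, where 5.12% of all tested genes were, 19 for leukemic against WT, 21 for the double mutant against Tet2-/- (19 of the 20 called without it, and every gene given there with its own test kept its side of the threshold) and 27 for leukemic against non-leukemic.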
